A study of Mus musculus with 6 samples.

Results

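The genes of the β-Catenin destruction complex were taken from the counts by symbol, 10 of 21960 genes. They are Ctnnb1 (β-Catenin, the substrate), Axin1, Axin2 and Apc (scaffolds), Gsk3a, Gsk3b, Csnk1a1 and Csnk1e (kinases), and Btrc and Fbxw11 (the adaptors β-TrCP1 and β-TrCP2). This set of proteins keeps β-Catenin low in cells that receive no Wnt signal. Casein kinase 1 and glycogen synthase kinase 3 phosphorylate β-Catenin on the scaffolds Axin and APC, and the ubiquitin ligase adaptor β-TrCP then marks it for the proteasome. When Wnt ligands engage their receptors the complex is inhibited, and β-Catenin accumulates and activates genes together with TCF/LEF factors. In mammary epithelium the same protein also links E-cadherin to the actin cytoskeleton. Most of the regulation of this complex takes place on proteins, by phosphorylation and degradation, and RNA levels do not measure it.

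RNA was sequenced from 3 mock and 3 p140Cap libraries of TuBo cells, a HER2+ line whose source was a BALB/c-MMTV-NeuT mammary tumor, driven by the rat neu oncogene. p140Cap cells received the p140Cap cDNA in a retrovirus with puromycin selection, and several clones grown from single cells were pooled, so clonal differences and the effect of the cDNA cannot be told apart. The deposited labels speak of cell lines in one field and of mice in another, and nothing in them says that replicates were separate cultures. The p-values therefore measure the spread between these libraries only, which may be technical. Srcin1, which encodes p140Cap, ranged from 509 to 1192 reads in mock and from 30546 to 36989 reads in p140Cap libraries, so the transduced gene matched the labels.

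Depth on genes came to 75506562, 39108766 and 33058719 reads for mock and 15364850, 14909271 and 13770385 for p140Cap (every p140Cap library was the shallower). Summed levels of 6 epithelial markers were 5480 to 5870 CPM (reads scaled to the library size) in mock and 6450 to 6670 CPM in p140Cap cells. Of the 6, 3 passed the test as higher in p140Cap cells (50%). Among all genes tested, 35.2% were called higher and 71.1% in either direction. Fibroblast markers summed to 9.93 to 10.5 CPM and 11.3 to 14.1 CPM, with Col1a2, Col3a1 and Dcn at 0 reads in all 6 libraries. Of the fibroblast markers with reads, Col1a1 was called higher in p140Cap cells (log2 fold change 0.80, adjusted p = 0.000244, edgeR). Pdgfra, the larger part of the sum, was not called (log2 fold change 0.09, adjusted p = 0.499, edgeR), and its groups overlapped. Endothelial markers summed to at most 0.734 CPM, with Kdr at 0. Pecam1 was called higher in p140Cap cells (log2 fold change 1.25, adjusted p = 0.0133 in edgeR), on only 5 to 18 reads per library. Tek went the other way, with 1, 2 and 2 reads in mock and 0 in each p140Cap library, and Cdh5 had 1 read, in mock. Leukocyte markers summed to at most 0.0131 CPM with Ptprc at 0. The part of the marker differences in the results for the complex was not tested.

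Promoter sequences are shown for the scaffold Axin2 and for the GSK3 paralogues, since Axin2 is a classical feedback target of β-Catenin/TCF and was the member with the fewest reads, and since the GSK3 pair holds the matches to the TCF core found here. Windows of 250 bases before a RefSeq transcript start (GRCm38.p6) were on hand for 6 of the 10 genes. The letters searched were CTTTGA and its reverse complement TCAAAG, and capitals mark a match. The windows are chr11:108920099-108920348 on the plus strand for Axin2, chr7:25237852-25238101 on the minus strand for Gsk3a and chr16:38088751-38089000 on the plus strand for Gsk3b, each written 5′ to 3′ in the direction of the gene.
Axin2: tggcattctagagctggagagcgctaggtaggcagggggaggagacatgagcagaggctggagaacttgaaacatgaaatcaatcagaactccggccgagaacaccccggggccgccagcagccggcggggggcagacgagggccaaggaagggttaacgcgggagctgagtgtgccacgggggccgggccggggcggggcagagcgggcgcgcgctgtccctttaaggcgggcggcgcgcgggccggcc
Gsk3a: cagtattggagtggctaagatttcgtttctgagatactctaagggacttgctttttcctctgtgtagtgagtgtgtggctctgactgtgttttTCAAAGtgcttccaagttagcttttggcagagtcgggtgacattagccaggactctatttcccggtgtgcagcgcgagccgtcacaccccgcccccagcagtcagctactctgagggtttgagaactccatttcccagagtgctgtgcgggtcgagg
Gsk3b: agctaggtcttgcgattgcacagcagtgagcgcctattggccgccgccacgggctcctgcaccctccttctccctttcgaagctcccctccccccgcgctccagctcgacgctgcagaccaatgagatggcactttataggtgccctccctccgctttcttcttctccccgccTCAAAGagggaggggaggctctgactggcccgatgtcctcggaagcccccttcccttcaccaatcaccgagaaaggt
The Axin2 window lies inside the annotated gene, before a start downstream of its first base. The match lay 157 bases before the start of Gsk3a and 77 bases before the start of Gsk3b, each time as TCAAAG. Windows of Axin2, Ctnnb1, Csnk1e and Fbxw11 held neither spelling. Of all 32851 windows of this length in the table, 13.8% held a match, so 2 of the 10 windows of these genes is a description and no sign of binding. The Axin2 window had a GC content of 69.2%, where the median of all windows was 52.4%. This was not particular to Axin2, since windows of Ctnnb1 had 74.4 and 74.8% and those of Csnk1e 61.2 to 80.8%. The windows of Gsk3b and Fbxw11 had 62.0% each, and that of Gsk3a had 52.0%.

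Of the 10 genes, 9 had enough reads for a test, and 4 of these were differentially expressed between p140Cap and mock cells (edgeR, quasi-likelihood, Benjamini-Hochberg adjusted p under 0.05 over 11800 genes). Csnk1a1, Ctnnb1 and Fbxw11 were higher and Axin1 was lower in p140Cap cells. The share of all genes tested that were called was 71.1%, with 35.2% higher and 35.9% lower, and it was 44.4% among the 9 members. In RNA from whole cultures, fewer cells expressing a gene and less RNA per cell cannot be told apart. CPM values of the groups did not overlap for the same 4 of the 9 members tested, 3 with p140Cap above and 1 with mock above. Of all genes tested 73.4% did not overlap, 36.3% with p140Cap above and 37.2% with mock above. None of the 9 members tested changed by 1 log2 unit or more, which 9.97% of all genes tested did. The median log2 fold change was 0.08 over the 9 members and 0.00 over all genes tested. The changes that were called lay between -0.26 and 0.29 on the log2 scale, and the median absolute change of all genes tested was 0.32.

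**Figure D1:**
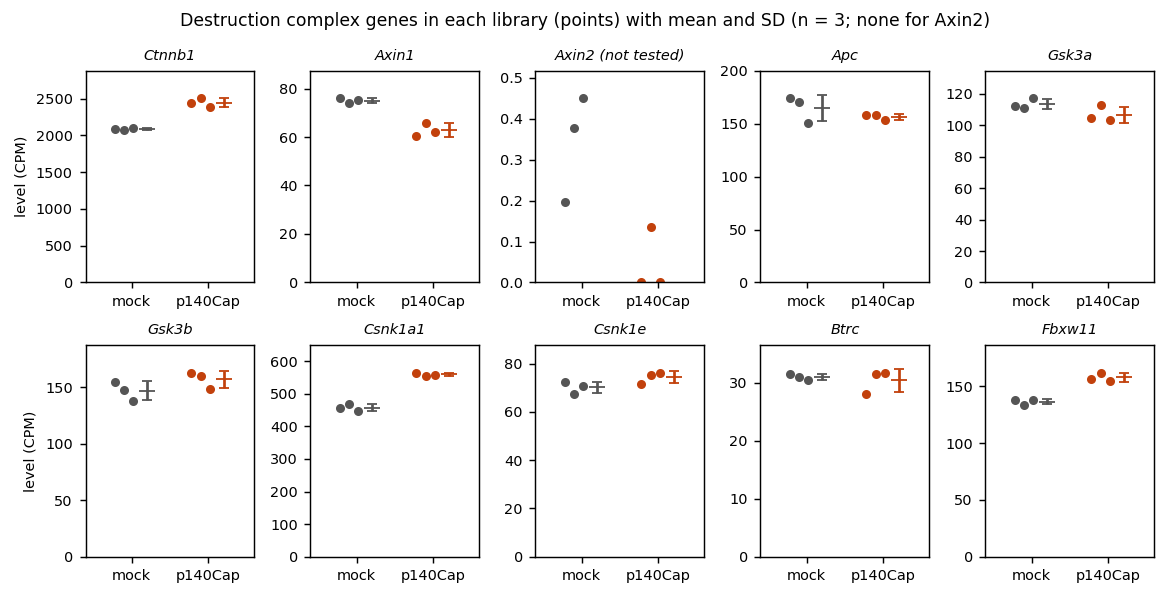
Level of the 10 genes (CPM, linear axes from 0) in each of the 3 mock (grey) and 3 p140Cap (orange) libraries, with the mean and SD beside the points except for Axin2. The groups stand apart in Ctnnb1, Csnk1a1 and Fbxw11 (p140Cap higher) and in Axin1 (p140Cap lower), Axin2 has points at 0, and the groups overlap in the other panels.

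Ctnnb1 (ENSMUSG00000006932; GRCm38.p6 chromosome 9, 120933400 to 120960507, plus strand) had 2082, 2080 and 2104 CPM in mock and 2445, 2505 and 2381 CPM in p140Cap cells. Every p140Cap library was above every mock library. The means were 2089 ± 13.4 CPM (SD, n = 3) and 2444 ± 61.9 CPM (SD, n = 3), a log2 fold change of 0.23 with an SE of 0.04 and a 95% interval of 0.13 to 0.32 (adjusted p = 0.000257, edgeR). These values rest on 32416 to 159313 reads per library. A 1.17-fold rise was modest among these transcriptomes, and 62.4% of the genes tested had a larger absolute change.

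Axin1 and Axin2 are paralogous scaffolds that bind β-Catenin, APC and the kinases, and Axin is generally regarded as the component in shortest supply. Axin1 (ENSMUSG00000024182; chromosome 17, 26131217 to 26195811, plus strand) had 76.0, 73.9 and 75.1 CPM in mock and 60.4, 65.9 and 62.1 CPM in p140Cap cells. Every p140Cap library was below every mock library. The means were 74.99 ± 1.06 CPM (SD, n = 3) and 62.8 ± 2.82 CPM (SD, n = 3), a log2 fold change of -0.26 with an SE of 0.05 and a 95% interval of -0.36 to -0.15 (adjusted p = 0.000265, edgeR). It ranged from 2501 to 5815 reads in mock and from 845 to 968 reads in p140Cap libraries.

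Axin2 (ENSMUSG00000000142; chromosome 11, 108917828 to 108950783, plus strand) was nearly absent from these libraries. Each mock library held 15 reads, which is 0.196, 0.377 and 0.450 CPM because the libraries differ in depth. In the p140Cap libraries it had 0, 2 and 0 reads, or 0, 0.136 and 0 CPM. No p140Cap library reached the level of the lowest mock library. That lowest mock level, 0.196 CPM, was itself no higher than what 3 reads would give in any p140Cap library (0.198, 0.204 and 0.220 CPM), so single p140Cap libraries could hardly resolve it.

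At the pooled mock rate, 4.56, 4.42 and 4.10 Axin2 reads would have been found in p140Cap libraries 1, 2 and 3, and 23, 12 and 10 in the mock libraries. Mock library 1, the deepest, was thus below the pooled rate and the other two were above it. Pooled over the groups, 45 mock and 2 p140Cap reads gave 0.301 and 0.046 CPM, a ratio of 6.54 with a 95% exact binomial interval of 1.71 to 55.6, which covers counting error only. Leaving out p140Cap library 2, which holds both p140Cap reads, leaves a lower bound of 2.89 against 3 reads over the group. Too few reads kept Axin2 out of the edgeR test.

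**Figure D2:**
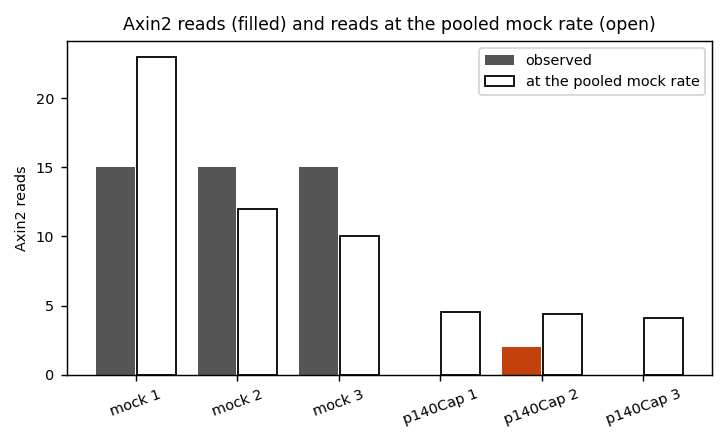
Reads assigned to Axin2 in each library (filled bars; mock grey, p140Cap orange) beside the reads the pooled mock rate would give at that library's depth (open bars). All 3 mock libraries held 15 reads, and the p140Cap libraries held 0, 2 and 0 where 4.10 to 4.56 would be found at the mock rate.

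Within the Axin pair, Axin1 supplied nearly all reads in both groups. Axin2 made up 0.398% of the 11299 Axin reads of mock cells (95% exact binomial interval 0.291 to 0.533%) and 0.0732% of the 2732 Axin reads of p140Cap cells (0.00887 to 0.264%). By library its share was 0.257, 0.508 and 0.596% in mock and 0, 0.206 and 0% in p140Cap cells. The intervals of the pooled shares did not overlap, but they leave out the spread between libraries. Axin1 passed the edgeR test as lower in p140Cap cells, and for Axin2 these reads are a description without a test between groups.

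Apc (ENSMUSG00000005871; chromosome 18, 34220297 to 34322190, plus strand) encodes the large scaffold that presents β-Catenin to the kinases. It had 174, 171 and 151 CPM in mock and 158, 159 and 154 CPM in p140Cap cells, and the p140Cap values lay inside the mock range. Its log2 fold change was -0.08 with a 95% interval of -0.19 to 0.04 (adjusted p = 0.224, edgeR). Mock library 3 was the low one, and without it the log2 fold change was -0.14 (adjusted p = 0.0149, edgeR). Without mock library 1, the highest, it was -0.04 (adjusted p = 0.606, edgeR). Over the 15 alternatives Apc passed the threshold in 1, the fit without mock library 3.

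GSK3α and GSK3β, encoded by Gsk3a and Gsk3b, phosphorylate β-Catenin after priming and are largely interchangeable in this role. Gsk3a (ENSMUSG00000057177; chromosome 7, 25228258 to 25237851, minus strand) had 112, 111 and 117 CPM in mock and 104, 113 and 103 CPM in p140Cap cells. Its p140Cap library 2 overlapped the mock range, and the log2 fold change was -0.09 with a 95% interval of -0.19 to 0.02 (adjusted p = 0.121, edgeR). It passed the threshold without that library (-0.13, adjusted p = 0.0310, edgeR) and with library totals in place of normalization factors (-0.13, adjusted p = 0.0314, edgeR). Gsk3b (ENSMUSG00000022812; chromosome 16, 38089001 to 38246084, plus strand) had 155, 147 and 138 CPM in mock and 163, 160 and 149 CPM in p140Cap cells. The groups overlapped, and its log2 fold change was 0.10 with a 95% interval of -0.02 to 0.21 (adjusted p = 0.116, edgeR). Without mock library 3 it was 0.05 (adjusted p = 0.399, edgeR), and it was not called in any of the 15 alternatives.

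Casein kinase 1α, the product of Csnk1a1, places the priming phosphate on β-Catenin, and casein kinase 1ε, the product of Csnk1e, is better known for acting on Dishevelled and the Wnt receptor. Csnk1a1 (ENSMUSG00000024576; chromosome 18, 61554236 to 61590320, plus strand) had 456, 469 and 448 CPM in mock and 565, 556 and 557 CPM in p140Cap cells. It had the largest change of the 9 genes tested, with no overlap between groups. The means were 458 ± 10.7 CPM (SD, n = 3) and 559 ± 5.11 CPM (SD, n = 3), a log2 fold change of 0.29 with an SE of 0.05 and a 95% interval of 0.19 to 0.38 (adjusted p = 2.42e-05, edgeR). Still, 53.4% of all genes tested had a larger absolute change. Csnk1e (ENSMUSG00000022433; chromosome 15, 79417852 to 79455579, minus strand) had 72.3, 67.6 and 70.6 CPM in mock and 71.7, 75.4 and 76.3 CPM in p140Cap cells. The groups overlapped through p140Cap library 1, and its log2 fold change was 0.08 with a 95% interval of -0.02 to 0.19 (adjusted p = 0.148, edgeR).

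β-TrCP1 and β-TrCP2, encoded by Btrc and Fbxw11, are F-box proteins that read the phosphorylated β-Catenin degron. Fbxw11 (ENSMUSG00000020271; chromosome 11, 32642555 to 32746816, plus strand) had 138, 134 and 138 CPM in mock and 157, 162 and 155 CPM in p140Cap cells. It was higher in each p140Cap library than in any mock library. The means were 137 ± 2.39 CPM (SD, n = 3) and 158 ± 3.77 CPM (SD, n = 3), a log2 fold change of 0.21 with an SE of 0.05 and a 95% interval of 0.11 to 0.31 (adjusted p = 0.000578, edgeR).

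Btrc (ENSMUSG00000025217; chromosome 19, 45363688 to 45533343, plus strand) had 31.6, 31.0 and 30.5 CPM in mock and 28.1, 31.5 and 31.8 CPM in p140Cap cells. Libraries of the groups were intermixed, and the log2 fold change was -0.03 with a 95% interval of -0.16 to 0.10 (adjusted p = 0.686, edgeR). The sign of this value turned to 0.0241 without p140Cap library 1. The 423 other genes tested on chromosome 19 centred on a log2 fold change of -0.34 (median), and 79.7% of them were lower in p140Cap cells, whereas the medians for the chromosomes of the other members lay between -0.01 and 0.06. Btrc thus lay above the median of its chromosome, and the part of this chromosome-wide shift in its value was not tested.

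**Figure D3:**
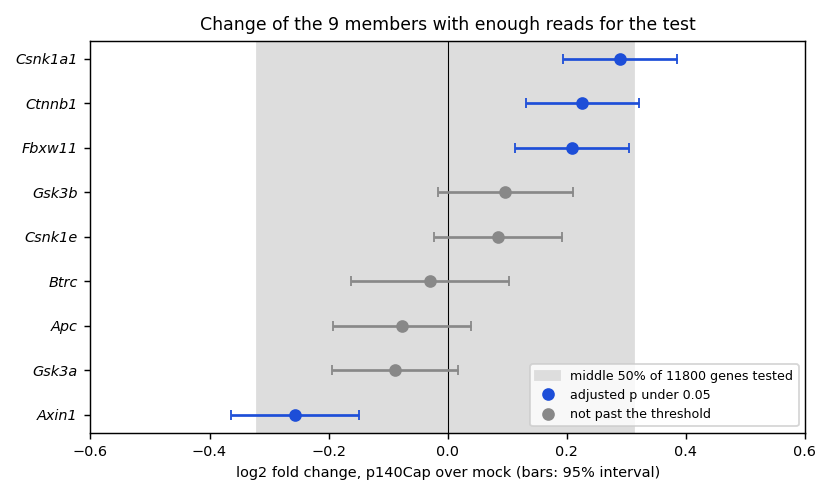
Log2 fold change of p140Cap over mock cells for the 9 genes tested (points) with 95% intervals (bars); blue marks an adjusted p under 0.05 in edgeR and grey the rest, and the band holds the middle 50% of the 11800 genes tested, from -0.32 to 0.31. All 9 points lie inside the band, Csnk1a1 at 0.29 and Axin1 at -0.26 at its edges.

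The paralogues were next compared within each library, where depth and scaling between libraries drop out. With 3 libraries against 3, a two-sided exact permutation test cannot give a p under 0.1, and each of the 7 ratios compared had that value (0.1 also after Benjamini-Hochberg adjustment over the 7). The groups did not overlap for any of them, which was also so for the CPM of 73.4% of all single genes tested, and the share for ratios of other gene pairs was not computed. A difference of log2 ratios is, apart from scaling, the difference of the log2 fold changes of its genes, so the ratios are no separate evidence for the changes above.

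The ratio of Gsk3a to Gsk3b reads was 0.725, 0.756 and 0.848 in mock and 0.640, 0.706 and 0.696 in p140Cap cells, a log2 difference of -0.19. Neither gene was called by itself, and without mock library 3, the highest, the log2 difference was -0.12. For Btrc to Fbxw11 the ratio was 0.230, 0.232 and 0.221 in mock and 0.180, 0.194 and 0.205 in p140Cap cells, a log2 difference of -0.24. Csnk1a1 to Csnk1e gave 6.31, 6.94 and 6.34 in mock and 7.88, 7.37 and 7.30 in p140Cap cells, a log2 difference of 0.20.

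The substrate was also set against its scaffolds. There were 27.4, 28.2 and 28.0 Ctnnb1 reads per Axin1 read in mock and 40.45, 37.99 and 38.36 in p140Cap cells. This was the widest separation of the 7, a log2 difference of 0.48 or 1.40-fold, where the SD of the log2 ratio was 0.02 in mock and 0.05 in p140Cap cells. Per Apc read, Ctnnb1 had 11.9, 12.2 and 13.9 reads in mock and 15.5, 15.8 and 15.5 in p140Cap cells, a log2 difference of 0.30. Axin1 to Apc was 0.436, 0.433 and 0.497 in mock and 0.382, 0.415 and 0.404 in p140Cap cells, a log2 difference of -0.18. That ratio was the exception in thinned libraries, where it was -0.12 with overlap between the groups (exact permutation p = 0.4), and it was also -0.12 without mock library 3. Jup encodes plakoglobin, the paralogue of β-Catenin in desmosomes, and was itself not called (log2 fold change -0.13, adjusted p = 0.0712, edgeR), though it was called lower in 4 of the 15 alternatives. Ctnnb1 to Jup was 2.44, 2.63 and 2.30 in mock and 3.31, 2.97 and 3.13 in p140Cap cells, a log2 difference of 0.35.

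**Figure D4:**
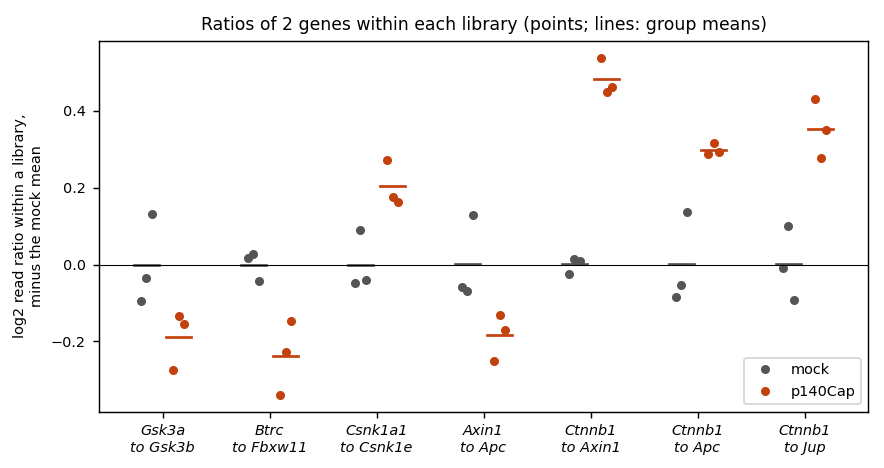
Log2 ratio of the reads of a pair of genes within each library, minus the mean of the mock libraries (points: libraries; lines: group means). The groups do not overlap for any of the 7 ratios (as for the CPM of 73.4% of all genes tested), and Ctnnb1 to Axin1 has the widest difference between group means, 0.48.

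Levels can be compared between genes only per length, so CPM were divided by the merged exon length of each gene (CPM per kb). On this scale Ctnnb1 was far above the rest, at 256 in mock and 299 in p140Cap cells. Csnk1a1 followed at 38.1 and 46.6, and Gsk3a at 32.0 and 30.1. Gsk3b (14.9 and 16.0) and Fbxw11 (14.1 and 16.3) overlapped each other in both groups.

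The scaffolds came next in level per length, Axin1 at 9.69 in mock and 8.12 in p140Cap cells and Apc at 9.20 and 8.74. Their libraries overlapped in mock cells, whereas in p140Cap cells all Apc values (8.56 to 8.84) were above all Axin1 values (7.81 to 8.52). Csnk1e stood at 6.27 and 6.65, Btrc at 1.30 and 1.27, and Axin2 at 0.0492 and 0.00655. All other neighbours in this order were separated in both groups.

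The order depends on the length used. Gsk3a exceeded Gsk3b 2.15-fold in mock cells per merged exon length and 2.30-fold per longest transcript, but per coding length the ratio was 0.654, so Gsk3b was then the higher. Axin1 to Apc was 1.05 in mock cells per merged exon length, 0.879 per longest transcript and 1.51 per coding length. Btrc remained below Fbxw11 in mock cells, at 0.0923, 0.282 and 0.199 of its level, and Csnk1a1 above Csnk1e, at 6.08, 5.26 and 8.01 times its level. Ctnnb1 and Csnk1a1 were the top pair, and Btrc and Axin2 the lowest, on all 3 lengths in both groups.

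**Figure D5:**
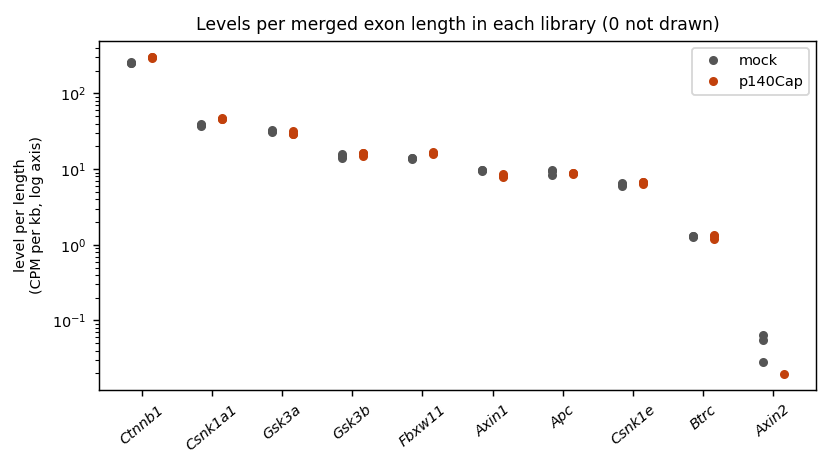
Level of each gene per merged exon length (CPM per kb, log axis) in each library, ordered by the mock mean; grey points are mock and orange points p140Cap libraries, and libraries with 0 reads are not drawn. Ctnnb1 lies near 256 to 299, most members between 6 and 47, Btrc near 1.3 and Axin2 below 0.07.

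Among 37 genes of proteins that work with the complex, 34 were tested and 17 were called (50%, beside 71.1% of all genes tested), 11 higher and 6 lower, and their log2 fold changes had a median of 0.02. The split depends on the setting, with 10 higher and 10 lower under library totals, and 10 and 9 with no filter on low counts. Of the scaffold partners, Amer1, which brings APC to the membrane, rose by 0.18 on the log2 scale (adjusted p = 0.00585, edgeR), and Amer2 and Amer3 had no reads. Of the other casein kinase 1 genes, Csnk1g1 rose by 0.19 and Csnk1g3 fell by 0.33 (adjusted p = 0.00400 and 7.70e-05, edgeR). Csnk1d, the closest paralogue of Csnk1e, had 186 CPM in each group and did not pass the test (log2 fold change 0.00, adjusted p = 0.980 in edgeR).

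Protein phosphatase 2A removes phosphates that the kinases add and binds Axin. Of its 9 genes tested, 2 rose and 2 fell (44.4% called, beside 71.1% of all genes tested). The largest changes were those of the scaffold subunit Ppp2r1b with a log2 fold change of -0.56, the regulatory subunit Ppp2r5a with 0.52 and the catalytic subunit Ppp2cb with -0.47 (adjusted p = 8.71e-08, 3.42e-08 and 1.92e-07, edgeR). The 9 members tested had log2 fold changes between -0.26 and 0.29. Of the SCF ligase core that works with β-TrCP, the cullin Cul1 rose by 0.18 and the RING protein Rbx1 fell by 0.14 on the log2 scale (adjusted p = 0.00554 and 0.0298, edgeR), the latter without a call under 5 of the 15 alternatives.

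Of 12 regulators, 4 rose and 2 fell (50% called, beside 71.1% of all genes tested). Frat1, whose product binds GSK3 and keeps it from Axin, rose by 1.44 on the log2 scale with an SE of 0.31 (adjusted p = 0.000532, edgeR), but had only 11 to 25 reads per library and lost the call in thinned libraries. Dvl2, a Dishevelled gene that passes the Wnt signal to Axin, had 21.3 ± 1.03 CPM (SD, n = 3) in mock and 30.8 ± 2.01 CPM (SD, n = 3) in p140Cap cells, which is 0.53 higher on the log2 scale (adjusted p = 2.55e-06, edgeR). Siah1b, a ligase gene, fell by 0.96 on the log2 scale (adjusted p = 4.19e-08, edgeR), and its reads are uncertain because of the near-identical copy Siah1a. Of the adhesion partners, Ctnnd1 (p120-catenin) rose by 0.18 and Cdh1 (E-cadherin) by 0.11 on the log2 scale (adjusted p = 0.00233 and 0.0471, edgeR), and Cdh1 lost the call under 11 of the 15 alternatives.

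Besides Axin2, the list of 14 feedback genes of the pathway holds genes that β-Catenin/TCF activates in many tissues and that in turn adjust the signal. Only 5 of the 14 had enough reads to be tested, and 3 were called, 2 higher and 1 lower (60%, beside 71.1% of all genes tested). Rnf43, a ligase that removes Wnt receptors, rose by 0.33 on the log2 scale with an SE of 0.05 (adjusted p = 1.68e-05, edgeR), while its relative Znrf3 stood at -0.13 (adjusted p = 0.0578, edgeR) and was called lower in 4 of the 15 alternatives. Of the TCF/LEF factors themselves, Tcf7 fell by 0.96 (adjusted p = 5.47e-08, edgeR) and Lef1, at about 4.54 CPM in mock cells, rose by 0.30 (adjusted p = 0.0314, edgeR). Lef1 lost the call under 8 of the 15 alternatives.

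Nkd2, an antagonist of Dishevelled, was not called (log2 fold change -0.09, adjusted p = 0.162 in edgeR), except in 2 of the 15 alternatives, where it was called lower. Notum, which encodes a Wnt deacylase, had 21, 10 and 7 reads in mock and 3, 5 and 7 reads in p140Cap cells, so its levels of 0.210 to 0.274 CPM and 0.198 to 0.514 CPM overlapped. Lgr5 and Wif1 had 1 read each, both in mock libraries, and Nkd1, Dkk1, Dkk4, Sp5 and Apcdd1 had none. With 1 read or none, these genes cannot be compared at this depth.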

How the data were processed

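RNA of 3 mock and 3 p140Cap TuBo libraries was poly(A)-selected per the labels, sequenced as stranded libraries on a NextSeq 500 and processed with docker4seq. The authors deposited counts of reads per gene as whole numbers, without normalization and with replicates kept apart. The submitters' processing notes name STAR 2.5, RSEM and mm10, so the counts may be rounded estimates. The paper names GRCm39 as the mouse reference instead, so the build behind the counts is not certain. The strand setting of counting and the annotation release were not given in the sources used here, and genes on the opposite strand overlap 8 of the 10 members, whose reads cannot be told apart if strand was not used.

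Counts were analysed in R 4.3.3 with edgeR 4.0.16 (TMM factors, filterByExpr, quasi-likelihood test of condition alone, Benjamini-Hochberg over 11800 genes, threshold 0.05). CPM used the TMM-adjusted sizes, SE is the absolute log2 fold change over the square root of F, and intervals are 95%. Merged exon, transcript and coding lengths and overlaps came from GENCODE (GRCm39) by Ensembl identifier (98.6% of genes matched), and positions and promoters from RefSeq GRCm38.p6, the build of mm10. Exact binomial intervals cover counting error only, and a floor is 3 reads. On simulated counts (11781 genes), the fit recovered 56.0% of genes changed by 0.25 log2 units and 98.1% of those changed by 1, and 4.49% of its calls were unchanged genes. The simulation changed only 44 to 53 genes at each size, with the same dispersion for all genes, whereas 71.1% of genes were called in the data. Its shares therefore do not carry over to these data. Libraries of the same group differed beyond sampling noise (mean chi-square per gene 1.75 to 10.7, where noise gives 1), so each was counted.

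The members and lists were chosen with earlier results of these data known. Genes named are the members, Srcin1, in each role of the lists the called genes with the largest change (at most 3), every feedback gene with a read, Jup and Csnk1d. The genes without reads, Cdh3, the markers, Siah1a and the pairs under the closing observations were named after their values were seen. Alternatives were DESeq2 1.42.0, limma-voom (limma 3.58.1), RLE and upper quartile factors, library totals, no filter (genes with at least 1 read), at least 10 reads in every library, binomial thinning to the smallest total, a replicate block and leaving out each library.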

Additional observations from a re-analysis of the deposited data

How the results depend on the processing

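Ctnnb1, Axin1, Csnk1a1 and Fbxw11 kept their direction and their call in all 15 alternatives, with log2 fold changes of 0.19 to 0.24, -0.29 to -0.20, 0.25 to 0.31 and 0.17 to 0.22. Btrc, never called, ranged from -0.0637 to 0.0241 on the log2 scale when a library was left out and changed sign without p140Cap replicate 1. Members called lower numbered 2 with library totals in place of factors (Gsk3a joined Axin1) and 2 with no filter on low counts (Axin2 joined Axin1), and 1 to 3 when a library was left out (2 without mock replicate 3, where Apc joined, and 3 without p140Cap replicate 2, where Gsk3a and Axin2 joined). Axin2 was fitted in 4 alternatives, and its edgeR adjusted p was 0.00449 with no filter, 0.00684 without p140Cap replicate 2 (0 reads left in p140Cap cells), and 0.0702 and 0.0656, not called, without p140Cap replicates 1 and 3. No conclusion rests on these. Library totals shifted the median of all genes by -0.04 on the log2 scale. Of all genes tested, 55.0% were called with no filter and 65.0 to 72.0% in the other alternatives.

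Complex partners called lower rose from 6 to 10 with library totals, where 71.1% of all genes tested were called, as in the main fit. Wnt feedback genes called higher fell to 1 with DESeq2, library totals, no filter on low counts and thinned libraries, and numbered 1 to 2 when a library was left out. Those called lower numbered 3 with library totals, 3 with no filter, 2 with at least 10 reads in every library, and 1 to 4 when a library was left out. Wnt feedback genes called numbered 2 to 6 when a library was left out, with 6 without p140Cap replicate 2. The cause of these moves was not tested.

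The log2 ratio of Ctnnb1 to Axin1 was 0.44 higher in p140Cap cells in thinned libraries and 0.45 to 0.50 higher when a library was left out. That of Gsk3a to Gsk3b was -0.24 to -0.12 and that of Axin1 to Apc -0.22 to -0.12 when a library was left out, each nearest 0 without mock replicate 3. The Axin2 ratio was 6.31 in thinned libraries, which held 13 and 2 reads, and 4.26 to 8.93 when a library other than p140Cap replicate 2 was left out; without that one, which left 0 p140Cap reads, it has a lower bound of 2.89. Same-numbered libraries did not deviate together (correlations -0.106 to -0.03) and no library correlated best with its own number. With the replicate number as a block, 4 members were called (3 higher, 1 lower), 15 partners and 3 Wnt feedback genes, beside 68.1% of all genes tested. The paired exact p of each ratio was 0.25, the smallest that pairing of 3 allows. The depth of the p140Cap libraries limits, among others, Axin2, Notum, Lgr5, Wif1, Cdh3 and Frat1.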

Other observations

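The ratios of reads in 5 paralogue pairs among the partners of the complex are given as values without a test, since the pairs were chosen after their values were seen. That the groups do not overlap in them is not independent of this choice, and 73.4% of all single genes tested did not overlap either. Tnks and Tnks2 encode tankyrases, which mark Axin for degradation. The ratio of Tnks to Tnks2 reads was 0.296, 0.278 and 0.269 in mock and 0.453, 0.473 and 0.420 in p140Cap cells, a log2 difference of 0.67. Tnks had a log2 fold change of 0.32 and Tnks2 of -0.36 (adjusted p = 9.81e-05 and 4.07e-06, edgeR), so the pair moved in opposite directions.

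In the phosphatase 2A core, the ratio of Ppp2r1a to Ppp2r1b scaffold reads was 4.42, 4.28 and 4.75 in mock and 6.13, 7.15 and 6.50 in p140Cap cells, a log2 difference of 0.56. The ratio of Ppp2ca to Ppp2cb catalytic subunit reads was 2.56, 2.65 and 2.52 in mock and 3.43, 3.10 and 3.39 in p140Cap cells, a log2 difference of 0.36. Ppp2r1b and Ppp2cb were called lower in edgeR, and Ppp2r1a and Ppp2ca were not called. Csnk1g1 to Csnk1g3, casein kinase 1γ genes, differed by 0.52 on the log2 scale. Siah1a to Siah1b differed by 0.87, in copies so alike that their reads are uncertain.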
